A study of Mus musculus with 2 samples.

Results

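The genes described here encode 10 antimicrobial proteins of the ocular surface: the iron and siderophore binders Ltf and Lcn2, the beta-defensins Defb1, Defb3 and Defb14, the cathelicidin Camp, the peptidoglycan-binding protein Pglyrp1, the lysozyme Lyz2, and the WAP domain proteins Slpi and Wfdc2. They were chosen by name, with earlier results of these data known. Their rows were found through the gene symbols of the array's annotation, among 30698 genes with a row of their own. Of the 10, 9 had a row of their own, and each of these 9 had 1 row. Slpi occurred only on a row that it shares with the microRNA Mir7678, so no value is assigned to it. The row of Defb3 was dim in both arrays, and the other 8 genes are the measured members.

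The tissue was the corneal epithelium of C57BL/6 mice of both sexes at an age of 8 weeks. In the injured group the epithelium had been scraped off 1 eye as far as the limbus with a 0.5 mm rust ring remover, and the healing epithelium was taken about 48 hours later, when 10% of the wound was still open. The uninjured group was the epithelium of the fellow eyes of the anaesthetised mice, taken at the same time. Each group is 1 array, and the number of mice behind it is not stated in the sources used here. Without replicate arrays no test could be made, no value carries a replicate error, and genes are called higher or lower only by a difference of 1 or more on the log2 scale, which is 2-fold. Whether more cells of a type or more RNA per cell lies behind a higher value cannot be told apart in such bulk samples.

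The table holds log2 intensities in 65952 rows. They run from 2.54 to 14.07, and the medians were 5.44 for the injured array and 5.43 for the uninjured one. A row is called dim where the brighter of its 2 values is below 5.44, the median of all values, and 19512 genes had a row at or above it. The SD of the difference between rows of the same gene was 0.242 (542 rows of 256 genes). It measures disagreement of probes within these arrays, not variation between animals. Of 14 measured corneal epithelial markers, 2 were 2-fold or more higher in the injured array, Krt14 by 2.23 and Cldn1 by 1.75. Another 7 were 2-fold or more lower, with the largest differences in Lypd2 (-7.49), Slurp1 (-6.61), Krt12 (-3.22) and Dsg1a (-2.87). The corneal keratin Krt12 was at 10.85 in the injured array and 14.07 in the uninjured array. The epithelial keratin Krt5 was bright in both arrays, at 13.69 and 13.85.

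Antimicrobial proteins of the tear film and the corneal epithelium hold back microbes by several routes. Lactoferrin and lipocalin 2 withhold iron, defensins and cathelicidin disturb microbial membranes, and lysozyme and peptidoglycan recognition proteins act on the bacterial cell wall. WAP domain proteins such as Slpi inhibit serine proteases released by leukocytes. Several of these proteins are also stored in neutrophil granules, among them lactoferrin, lipocalin 2, cathelicidin and Pglyrp1, and lysozyme 2 is abundant in macrophages and neutrophils.

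The measured members differed in both directions. In the injured array Ltf, Defb14 and Wfdc2 were at least 2-fold higher, Pglyrp1 and Defb1 at least 2-fold lower, and Lyz2, Lcn2 and Camp less than 2-fold apart. The 3 of 8 higher members stand beside 4.14% of all measured genes (808 of 19512), and the 2 of 8 lower members beside 3.92% (764 of 19512). The same 2 shares are the background of each 2-fold count of a list, family or marker set below. The median difference of the 8 was 0.51, against 0.06 for all measured genes. As the members were chosen with earlier results of these data known, these shares and medians do not test the list. Defb14 passed the low-signal filter through its injured value alone, so its presence among the measured members is tied to its difference. At 4-fold, 2 of the 8 were higher, Ltf and Defb14, beside 0.707% of all measured genes, and 0 were lower, beside 0.779%. At 1.5-fold Lyz2 joined the higher members, which made 4 of 8 beside 11.1%, and 2 were lower beside 8.76%.

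**Figure D1:**
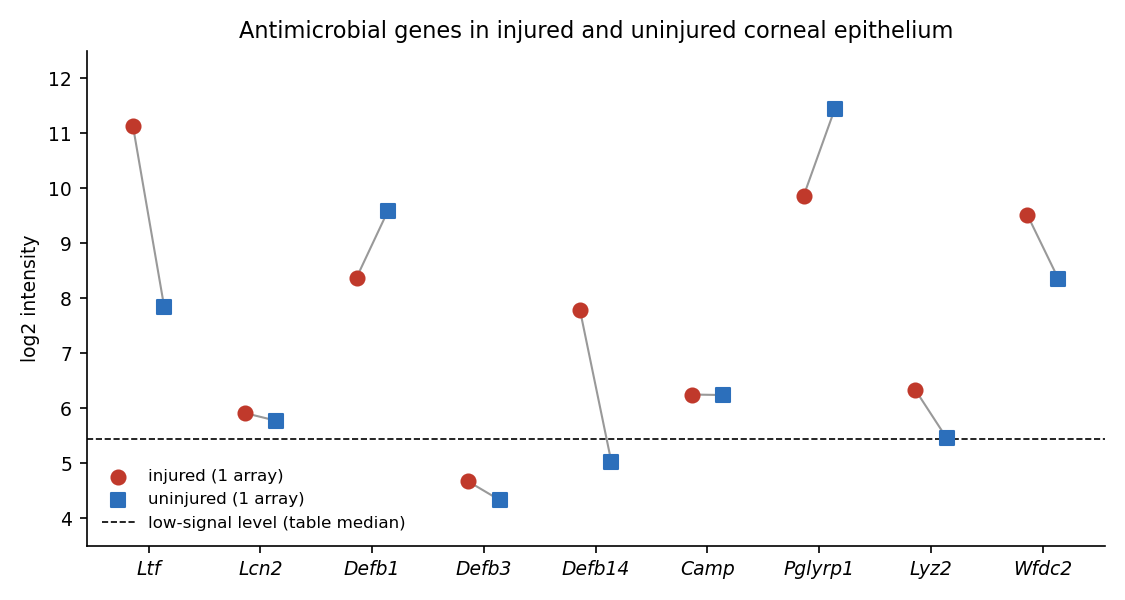
The log2 intensity of 9 antimicrobial genes is plotted on the vertical axis, with the injured array as a circle and the uninjured array as a square, and the dashed line is the low-signal level of 5.44. Ltf, Defb14 and Wfdc2 stand higher in the injured array, Pglyrp1 and Defb1 stand lower, and both values of Defb3 lie under the line.

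RefSeq promoter windows of GRCm38.p6 were matched by symbol for 8 of the 10 genes, and Defb1 and Defb14 were not among them. The 250 bases before the start are shown for Ltf and Wfdc2, which were higher in the injured array, and for Pglyrp1, which was lower. Capitals mark a match to a motif spelled TTNNGNAAT (C/EBP-like) or GGGNNNTTC (kappa-B-like), on either strand.
Ltf, chr9:111019042-111019291, forward strand: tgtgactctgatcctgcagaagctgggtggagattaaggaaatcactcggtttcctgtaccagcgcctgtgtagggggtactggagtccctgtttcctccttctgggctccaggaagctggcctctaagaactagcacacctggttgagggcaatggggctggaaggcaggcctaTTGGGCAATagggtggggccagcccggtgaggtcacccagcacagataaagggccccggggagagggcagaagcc
Wfdc2, chr2:164562465-164562714, forward strand: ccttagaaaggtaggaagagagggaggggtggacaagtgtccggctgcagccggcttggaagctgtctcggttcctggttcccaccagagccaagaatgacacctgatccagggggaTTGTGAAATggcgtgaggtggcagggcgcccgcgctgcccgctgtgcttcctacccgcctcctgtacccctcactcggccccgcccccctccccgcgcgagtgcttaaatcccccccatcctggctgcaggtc
Pglyrp1, chr7:18884440-18884689, forward strand: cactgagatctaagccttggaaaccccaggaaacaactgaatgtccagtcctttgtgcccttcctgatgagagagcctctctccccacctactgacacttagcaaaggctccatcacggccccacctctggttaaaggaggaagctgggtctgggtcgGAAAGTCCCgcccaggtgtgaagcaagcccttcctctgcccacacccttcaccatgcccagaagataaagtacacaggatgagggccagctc

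The capitals in the windows of Ltf and Wfdc2 are C/EBP-like matches, which begin 75 and 133 bases before the start. The capitals in the window of Pglyrp1 are a kappa-B-like match that begins 92 bases before the start. Of the 8 windows, 3 held the C/EBP-like letters, the third being that of Slpi, and 1 held the kappa-B-like letters. Among 27025 promoters of the same length 10.3% held the C/EBP-like and 11.8% the kappa-B-like letters. TGANTCA (AP-1-like), in 6.87% of the promoters, and TTCNNNGAA (STAT-like), in 7.18%, had no match in the 8 windows. No match overlapped another. A match describes letters in the window and is not evidence that a factor binds there.

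Of the iron and siderophore binders, Ltf was higher and Lcn2 was nearly level. Ltf encodes lactoferrin, the iron-binding glycoprotein of tears. Its log2 intensity was 11.13 in the injured array, against 7.84 in the uninjured array, a difference of 3.29 or 9.80-fold. Both values lay above the low-signal level, and the difference was the 28th highest of the 19512 measured genes. Lcn2 encodes lipocalin 2, which captures the iron-carrying siderophores of bacteria. It measured 5.91 in the injured array and 5.77 in the uninjured array, a difference of 0.14, which is smaller than the SD between rows of a gene. Both values lay within 0.5 of the low-signal level, where a change is hard to see.

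The other 2 genes of the transferrin family were close in both arrays. Trf, which encodes serum transferrin, measured 5.75 in the injured array and 5.66 in the uninjured array, and Meltf, which encodes melanotransferrin, measured 6.46 in both. Among the 6 measured genes of 10 lipocalins, 0 were 2-fold apart, with a median difference of 0.15. The brightest of the 6 was Lcn12, at 6.20 in the injured array, so these genes too lay near the low-signal level. In the list of iron and siderophore partners 11 of 14 genes were measured, with 1 higher, 0 lower and a median of 0.09. The 1 higher gene was Tfrc, the transferrin receptor that brings iron into cells, higher by 2.31, at 9.31 in the injured array and 7.001 in the uninjured array. The ferritin light chain Ftl1 and the metalloreductase Steap4 differed by 0.97 each, just under 2-fold. Steap3, of the same family as Steap4, ran the other way by -0.63, at 6.68 in the injured array and 7.30 in the uninjured array. The ferritin heavy chain Fth1 differed by -0.11, and Slc22a17, a cell surface receptor for lipocalin 2, by 0.19.

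The beta-defensins were split. Defb14, the mouse counterpart of human beta-defensin 3, measured 7.78 in the injured array, against 5.02 in the uninjured array, a difference of 2.75 or 6.74-fold, the 45th highest. The uninjured value lies below the low-signal level, so the size of the difference is uncertain. With that value raised to the low-signal level the difference is 2.34 (5.07-fold), and with a linear constant of 20.9 added before the log2 step it is 2.17 (4.49-fold).

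Defb1, a defensin that many epithelia make without a stimulus, ran the other way. It measured 8.37 in the injured array, against 9.58 in the uninjured array, a difference of -1.21 or 2.32-fold lower, the 509th lowest. Both of its values lay well above the low-signal level. Defb3, an inducible defensin in mouse airways, was dim, at 4.67 in the injured array and 4.33 in the uninjured array. Its difference of 0.34 was between values below the low-signal level and is not read as a change.

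Of 42 beta-defensin genes in the annotation 39 had a row of their own and 14 of these were measured. Defb14 was the 1 gene at least 2-fold higher and Defb1 the 1 at least 2-fold lower, with a family median of 0.08, or 0.01 over the 11 genes with both values at or above the low-signal level. The other 12 measured genes differed by between -0.11 and 0.19. The brightest of these 12 was Defb25, at 6.64 in the uninjured array. They lay near the low-signal level, where a change is hard to see. All 3 defensin members lie on chromosome 8. In the RefSeq order of protein-coding genes Defb14 sits between Spag11a and Defb4, Defb3 between Defb5 and Defb8, and Defb1 between Defa24 and Defb50. Defb4, the neighbour of Defb14, was dim, at 4.83 in the injured array and 4.46 in the uninjured array. Defb5, Defb8 and Defb50 were dim in both arrays too, and Defa24 occurred only on a row shared with other genes. Camp, which encodes the precursor of the mouse cathelicidin peptide CRAMP, measured 6.25 in the injured array and 6.24 in the uninjured array, a difference of 0.01.

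**Figure D2:**
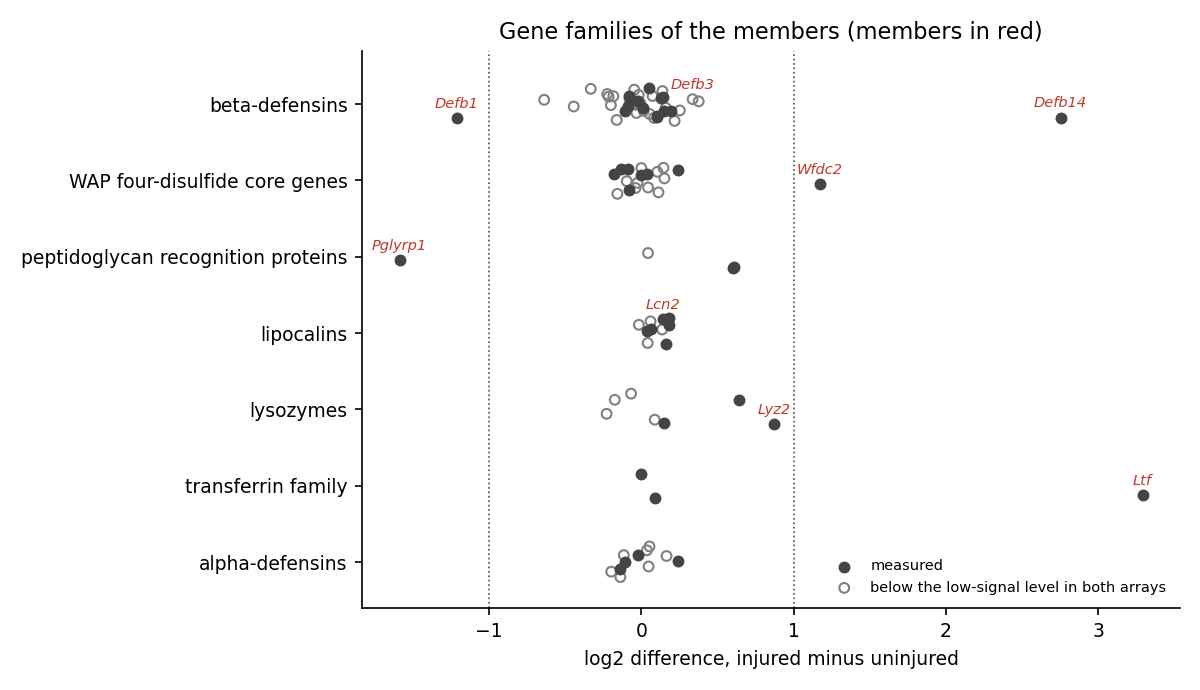
Each point is a gene of the family named on the left, placed on the horizontal axis by its log2 difference, injured minus uninjured, with filled points for measured genes, open points for genes below the low-signal level in both arrays, and dotted lines at 2-fold. In 4 of the 7 families 1 or 2 members lie outside the dotted lines, namely Ltf, Defb14, Defb1, Wfdc2 and Pglyrp1, and every relative with a row lies between the lines. Most of these relatives were dim or near the low-signal level, where a change is hard to see.

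Of the proteins that act on the bacterial cell wall, Pglyrp1 was lower and Lyz2 differed by just under 2-fold. Pglyrp1 encodes a secreted protein that binds peptidoglycan. It measured 9.86 in the injured array, against 11.45 in the uninjured array, a difference of -1.59 or 3.01-fold lower, the 278th lowest. Both values were far above the low-signal level. Its relatives were less than 2-fold apart. Pglyrp3 measured 5.87 in the injured array and 5.27 in the uninjured array, and Pglyrp4 measured 8.59 and 7.98 in the same order. Both are epithelial members of the family, and the uninjured value of Pglyrp3 lies below the low-signal level, so its direction is tied to the filter. Pglyrp2 was dim, at 5.20 and 5.16.

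Lyz2 encodes the lysozyme of macrophages and neutrophils. It measured 6.33 in the injured array and 5.46 in the uninjured array, a difference of 0.87 or 1.83-fold, and the uninjured value lay only 0.02 above the low-signal level. With the linear constant added, its difference was 0.65 (1.56-fold). Lyz1, the adjacent gene for the lysozyme of Paneth cells, measured 5.74 in the injured array and 5.09 in the uninjured array, and as the uninjured value lies below the low-signal level the size of its difference is uncertain. The pair are known as closely related copies, and whether their probes tell them apart was not tested. In the list of peptidoglycan recognition and breakdown 6 of 10 genes were measured, and 0 were 2-fold apart in either direction, with a median of 0.57. Of the 6, Pglyrp3 and Lyz1 passed the filter through the injured array alone, and the median of the other 4 was 0.34. The intracellular peptidoglycan sensors Nod1 and Nod2 differed by -0.70 and 0.53.

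Among the WAP domain genes Wfdc2 was higher. Wfdc2, also known as HE4, encodes a secreted protein of airway and reproductive tract epithelia. It measured 9.52 in the injured array, against 8.35 in the uninjured array, a difference of 1.17 or 2.25-fold, the 570th highest. Of 19 WAP genes in the annotation 18 had a row of their own, 8 were measured, and Wfdc2 was the 1 gene past 2-fold. The other 7 differed by between -0.18 and 0.24, and the family median was -0.04. The brightest of these 7 was Wfdc5, at 7.45 in the uninjured array, followed by Wfdc10, at 6.72 in the same array. Slpi and Wfdc2 both lie on chromosome 2, and Wfdc6a, close to Wfdc2 in RefSeq order, was dim at 5.06 in the injured array and 5.02 in the uninjured array.

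Serine proteases of leukocytes and epithelia, a list that includes targets of Slpi, were measured for 18 of 21 genes, with 2 higher, 2 lower and a median of 0.05. The higher genes were the kallikreins Klk10, by 2.00, and Klk8, by 1.22. The lower genes were the membrane-anchored channel-activating protease Prss8, by -1.27, and the serine protease Prss22, by -1.01. With the linear constant Prss22 was at -0.99, and 1 gene of the list was then lower. Elane, the neutrophil elastase that Slpi inhibits, measured 5.45 in the injured array and 5.51 in the uninjured array, close to the low-signal level. The list of other secreted or epithelial protease inhibitors also held Anxa1 (difference 0.91), an annexin that is not a protease inhibitor. Of the 16 genes of this list 13 were measured, with 1 higher, 1 lower and a median of -0.09. Spink5, an inhibitor of kallikreins, was higher, at 11.39 in the injured array and 8.88 in the uninjured array. Csta1, a cysteine protease inhibitor, was lower, at 7.21 in the injured array and 8.88 in the uninjured array.

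**Figure D3:**
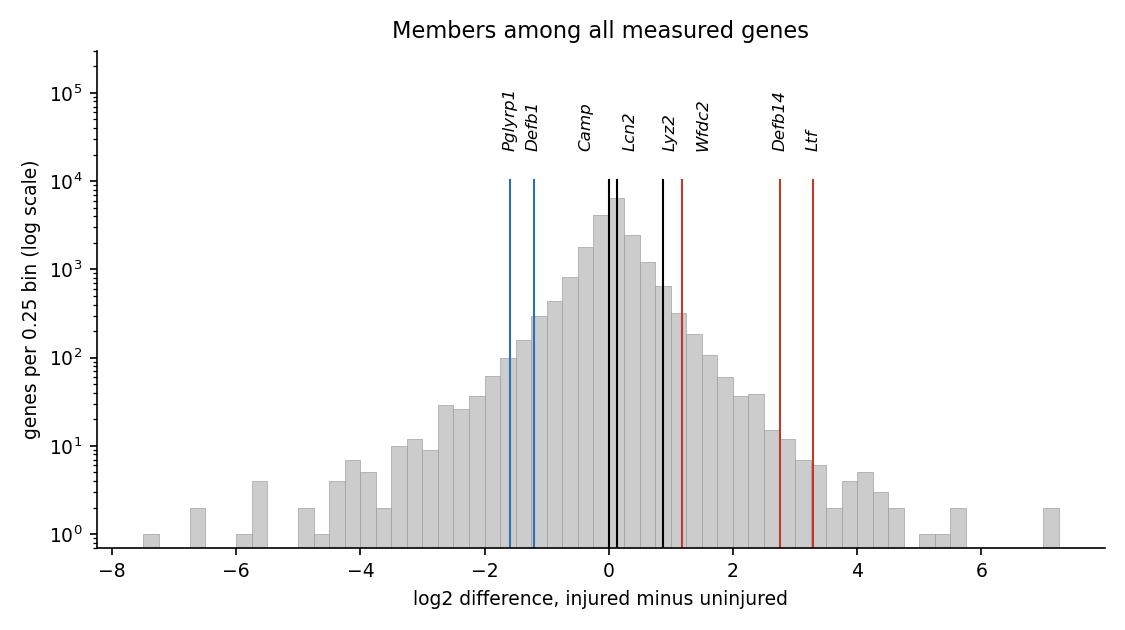
Grey bars count the 19512 measured genes in bins of 0.25 on the log2 difference, injured minus uninjured, with a log scale on the vertical axis, and lines mark the 8 measured members, in red where at least 2-fold higher and in blue where at least 2-fold lower. Ltf (3.29) and Defb14 (2.75) lie in the right tail, Pglyrp1 (-1.59) and Defb1 (-1.21) on the left flank, and Camp and Lcn2 in the centre.

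Of 30 genes listed as other antimicrobial proteins 10 were measured, of which 1 passed 2-fold upwards and 0 downwards, and their median was -0.15. The 10 include S100a10 (-0.21), an annexin ligand, and Gsdmd (-0.18), a pore-forming protein of cell death. The median is therefore not one of antimicrobial proteins alone. S100a9, a subunit of the metal-chelating alarmin calprotectin, was the 1 higher gene, at 7.67 in the injured array and 5.77 in the uninjured array. Its partner S100a8 was dim, at 5.32 and 3.77 in the same order, a difference of 1.55, and without the low-signal filter it made the count of higher genes 2. S100a7a, the mouse psoriasin, differed by -0.69, at 9.19 in the injured array and 9.89 in the uninjured array. The C-type lectins Reg3b and Reg3g and the bactericidal protein gene Bpi were dim in both arrays.

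The measured receptors and regulators that sense microbes or act in cytokine signals known to induce defensins were less than 2-fold apart. The interleukins that bind these receptors were not on the lists. Over all measured genes 4.14% were higher and 3.92% lower, so counts of 0 in such short lists lie near the background. Of 21 genes of pattern recognition and its signalling 14 were measured, with 0 higher, 0 lower and a median of 0.04. Cd14, the lipopolysaccharide co-receptor, differed by 0.94 and Nod1 by -0.70. Tlr1, a receptor for bacterial lipopeptides, was below the low-signal level in the injured array alone, at 5.13, against 5.86 in the uninjured array. Of 13 receptors and regulators of beta-defensins 10 were measured, also with 0 higher and 0 lower, and a median of 0.10. Il22ra1, a receptor subunit for interleukins that act on epithelia, differed by 0.45, and Nfkbiz, a nuclear cofactor in interleukin responses, by -0.58. Ccl20 and its receptor gene Ccr6 were dim in both arrays.

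Markers of neutrophils, which store several of the members, were mostly near the low-signal level. Of 25 markers other than the members 23 had a row, 16 were measured, and 1 passed 2-fold in each direction, with a median of 0.14. S100a9 was the higher marker. Itgam was the lower, at 8.72 in the injured array and 10.26 in the uninjured array. Values over the 23 rows spanned 4.01 to 8.72 in the injured and 3.70 to 10.26 in the uninjured array, and their summed linear intensity was 2237 in the injured array and 2834 in the uninjured array. Itgam decided the direction of that sum, since the other 22 rows summed to 1816 in the injured array and 1606 in the uninjured array. The granule protein genes Ngp, Ctsg and Mmp8 and the neutrophil genes Retnlg, Stfa2l1 and Trem1 were dim in both arrays. S100a8 was dim too, at 5.32 in the injured array and 3.77 in the uninjured array. The 14 measured markers less than 2-fold apart differed by between -0.48 (Padi4) and 0.40 (Mmp9). The granule gene Mpo (5.49 injured, 5.45 uninjured) and the surface marker Ly6g (5.58 injured, 5.44 uninjured) lay at the low-signal level. Beside Ltf, the granule members Camp and Lcn2 differed by 0.01 and 0.14, and Pglyrp1 by -1.59.

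**Figure D4:**
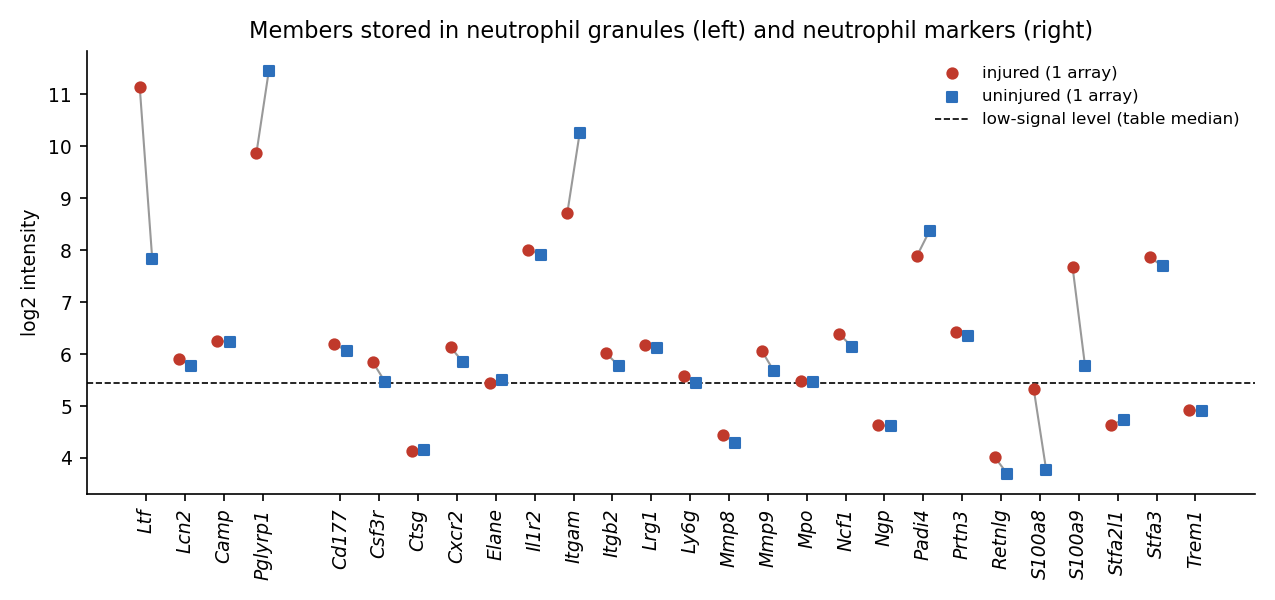
The log2 intensity is plotted for the 4 members stored in neutrophil granules, on the left, and for 23 neutrophil markers, on the right, with the injured array as circles, the uninjured array as squares and the low-signal level of 5.44 as a dashed line. Ltf and S100a9 stand higher and Pglyrp1 and Itgam lower in the injured array. Of the markers 7 lie below the line in both arrays, among them S100a8, which stands higher in the injured array.

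Macrophage and monocyte markers, which bear on Lyz2, were measured for 14 of 19 genes, with 1 higher, 0 lower and a median of 0.20. The higher marker was Ly6c2, by 2.75. Their summed linear intensity was 2202 in the injured array and 1430 in the uninjured array, and without Ly6c2 it was 1571 and 1336 in the same order. The lineage gene Adgre1 was dim, at 4.58 and 4.50, and Cd68 measured 9.12 in the injured array and 8.92 in the uninjured array. Of 16 lacrimal and tear gland markers 8 were measured, and 0 were 2-fold apart, with a median of 0.04 and a summed linear intensity of 720 in the injured array and 750 in the uninjured array. The secretory genes Pip, Dmbt1 and Amy1 were dim in both arrays. Of 13 conjunctival and goblet cell markers 11 were measured, with 2 higher, Krt8 by 1.52 and Krt19 by 1.11, and 2 lower, Fcgbp by -1.49 and Muc5ac by -1.26. Their median was 0.07 and their summed linear intensity 12133 in the injured array and 10559 in the uninjured array. Markers of stroma, vessels and blood were measured for 6 of 13 genes, with 0 higher and 1 lower, the proteoglycan Dcn, and a summed linear intensity of 573 in the injured array and 635 in the uninjured array. Dcn measured 4.77 in the injured array, below the low-signal level, and 6.09 in the uninjured array, so that call passed the filter through the uninjured array alone. The corneal epithelial markers had a median of -1.03 and a summed linear intensity of 39175 in the injured array and 87153 in the uninjured array. Of these markers 7 were at least 2-fold lower and 2, Krt14 and Cldn1, at least 2-fold higher. The part of these cell types in the members' values was not tested.

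The calls of the 5 members past 2-fold held under the other normalizations and the linear constant. With 1 row each, no choice of row or filter could move their differences. Ltf differed by between 3.18 and 3.29 over the settings, Wfdc2 by between 1.12 and 1.17, Defb1 by between -1.22 and -1.16, and Pglyrp1 by between -1.63 and -1.57. Defb14 ranged most, between 2.17 and 2.75.

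**Figure D5:**
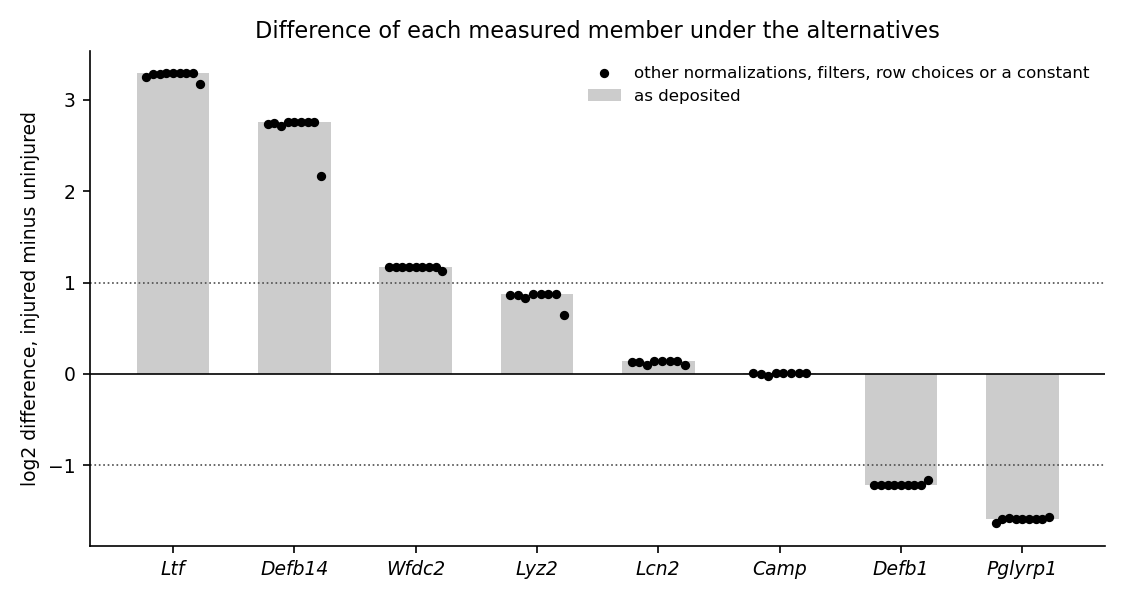
Grey bars show the log2 difference of each measured member as deposited, injured minus uninjured, from a baseline of 0, and points show it under 8 or 9 alternative settings, of which the filters and row choices cannot move it, with dotted lines at 2-fold. The points stay on the same side of the dotted lines as their bar for each of the 8 members, and the lowest point of Defb14, at 2.17, is the one with a constant added.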

How the data were processed

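RNA from 1 injured and 1 uninjured corneal epithelium sample was hybridised to arrays with a biotin label, per the labels' protocols. The authors' deposited values are log2 intensities. The submitters' processing notes name Agilent Feature Extraction 9.1, but the form of the row identifiers and the biotin label leave the software behind the values uncertain. The background correction, probe summary, normalization and build are not stated in the sources used here, and no detection or saturation call was used. The medians of the 2 columns differed by 0.0135, under the limit of 0.1 for a table taken as already normalized, so values were used as deposited.

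Rows were named from the platform annotation, with symbols updated through RefSeq (GRCm38.p6): 31254 rows carry 1 gene, 1492 several (left unnamed) and 33206 are unnamed here. A gene's row with the highest mean stood for it. The 7 context lists, 7 families and 6 marker lists, like the members and the motifs, were chosen with earlier results of these data known. Named genes are the members, genes past 2-fold in a list (up to 4 or, for counts of 5 or fewer, all) and marker extremes. Relatives, neighbours and other genes named with smaller differences were chosen after their values were seen. The kappa-B-like letters were shortened by 1 base after the matches had been seen, which raised the share of promoters that hold them. The human symbol PI3 in a list was dropped as an alias of an unrelated mouse gene. Calculations used Python 3.11.15, pandas 2.3.3 and statsmodels 0.14.6 (loess span 0.3), tested on simulated data. With 1 array a group no test was possible, and the number of arrays limits the precision.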

Additional observations from a re-analysis of the deposited data

How the results depend on the processing

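No paired analysis was possible because each group is 1 array, so the shared replicate number leaves no residual spread. The alternatives were quantile normalization, columns with equal 75th percentiles, loess correction, low-signal filters at the 25th and the 75th percentile or none, the mean or the dimmest of a gene's rows, a constant of 20.9 on the linear scale, and thresholds of 1.5-fold and 4-fold. Since each member has 1 row, the filters and row choices cannot move its difference. Of the 32 differences of members recomputed under the normalizations and the constant 31 moved by less than the SD between rows of a gene, and Defb14 with the constant moved to 2.17. The columns were already close. Equal 75th percentiles shift every difference by only 0.0051, so that setting could not move a difference by this SD. Camp was at 0.01 as deposited and at -0.03 at the lowest, so it has no settled sign. The filter at the 75th percentile left 5 members measured, without Camp, Lcn2 and Lyz2, which are the members less than 2-fold apart. The count of lower members was 0 at 4-fold, and this follows from the threshold. Over all measured genes the thresholds gave 2173 higher and 1710 lower at 1.5-fold, and 138 higher and 152 lower at 4-fold. Of 154 recomputed counts in the context lists 137 stayed within 1.5 times, and 14 of the 17 others came from the thresholds. Each gene of these lists with a row of its own has 1 row. The row choices therefore could not change a count, and their unchanged counts are among the 137. Without scanner files, signal over background is unknown, so differences of dim genes have no bound here.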

Other observations

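Alpha-defensins, the granule defensins of Paneth cells in the mouse gut, gave no 2-fold difference in either direction. Of 24 such genes in the annotation 11 had a row of their own, 13 occurred only on shared rows, and 4 were measured, with a median of -0.07 and differences between -0.14 and 0.24. The brightest of the 4 was Defa22, at 5.99 in the uninjured array, near the low-signal level, where a change is hard to see.

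Some tear proteins outside the list of 10 differed by less than 2-fold and in both directions. Lpo, which encodes lactoperoxidase, measured 6.21 in the injured array and 5.50 in the uninjured array, a difference of 0.71. Pigr, which carries secretory immunoglobulin A across epithelia, measured 5.93 in the injured array and 6.62 in the uninjured array, and Car6, the secreted carbonic anhydrase of saliva and tears, measured 5.37, below the low-signal level, and 6.01 in the same order.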
